A study of Mus musculus with 9 samples.

Results

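The genes described here are 38 mouse genes of 2 linked kinds, the enzymes of glycolysis with their transporters and regulators, and other target genes of the hypoxia-inducible factors (HIF) together with the HIF alpha subunits. They were taken by name from the 24421 genes of a count table of 9 bulk RNA-seq libraries, and all 38 were found in it. The libraries came from 4T1 cells, a mouse mammary carcinoma line, kept for 5 days in 3 conditions with 3 libraries each. The first condition was 3D spheroids on soft agar without added palmitate, which received the carrier albumin and ethanol alone. The second was 3D spheroids with 75 µM palmitate added as an albumin complex, and the third was 2D monolayers with the same palmitate addition. All 3 conditions shared the same parental line and medium with 10% serum. A 2D culture without added palmitate was not analysed here, so culture form was compared in the presence of palmitate only. The labels number the libraries but do not say that they came from separate cultures, and the p-values therefore measure the spread between these libraries. In bulk RNA, fewer cells that express a gene cannot be told apart from less RNA per cell.

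Glycolysis splits glucose into pyruvate, and lactate dehydrogenase then turns pyruvate into lactate so that the pathway can run without oxygen. When oxygen is short, the prolyl hydroxylases of the Egln family no longer mark HIF alpha subunits for destruction. The stabilised subunit then pairs with Arnt, binds DNA at short elements with the core letters ACGTG or GCGTG, and raises transcription of glycolytic genes and of genes for pH control, vessel growth, mitophagy and collagen hydroxylation. Much of this control acts on the HIF protein, which RNA-seq does not measure.

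Total counts ranged from 6595514 to 31177756 per library, the smallest being replicate 3 of 3D with palmitate. The ribosomal precursor Rn45s took 1.77% to 5.38% of them. All 5 epithelial markers searched were present, and their summed level was higher in 3D (4396 to 4530 CPM, counts scaled to library size) than in 2D (3080 to 3295 CPM). The 5 leukocyte markers summed to at most 0.976 CPM and the 4 endothelial markers to at most 0.579 CPM. The fibroblast list summed to 90.7 to 110.4 CPM in 3D and 29.6 to 31.2 CPM in 2D, almost all of it Pdgfra, while Lum was at 0 in all libraries and Pdgfrb and Dcn did not pass 0.0827 CPM. The part of these shifts in the results below was not tested.

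Of the 38 genes, 34 had enough counts for the test. The 4 others were close to or at 0. Slc2a3, the neuronal type glucose transporter, had 0 to 3 counts per library, and Slc16a3, the lactate exporter MCT4, had 1 to 10. Epas1, which encodes the HIF-2 alpha subunit, had 0 to 6 counts per library. Eno1, the ubiquitous enolase, had 1 count over all 9 libraries, a value taken up again below because most of its sequence is shared with another gene. These 4 genes give no evidence about either comparison.

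The promoters of 6 genes are shown as examples from the comparison of 3D with 2D. Ldha and Pgk1 are glycolytic enzymes that were lower in 3D, and Car9 with Car12 and Egln3 with Egln1 are paralogs that differed in opposite directions. A further such pair, P4ha1 and P4ha2, and the other glycolytic enzymes lower in 3D are not shown. The sequences are RefSeq bases of GRCm38.p6, read 5′ to 3′ on the strand of the gene and upstream of its start. Capitals mark ACGTG or GCGTG on either strand, so that CACGT is the reverse complement of ACGTG and CACGTG holds the letters on both strands.
Ldha, chr7:46845554-46845803, plus strand: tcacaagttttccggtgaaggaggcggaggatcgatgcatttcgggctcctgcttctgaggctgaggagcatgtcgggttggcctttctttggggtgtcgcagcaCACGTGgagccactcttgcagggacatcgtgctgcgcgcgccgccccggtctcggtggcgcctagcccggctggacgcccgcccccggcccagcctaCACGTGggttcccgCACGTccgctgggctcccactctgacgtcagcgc
Pgk1, chrX:106186850-106187099, plus strand: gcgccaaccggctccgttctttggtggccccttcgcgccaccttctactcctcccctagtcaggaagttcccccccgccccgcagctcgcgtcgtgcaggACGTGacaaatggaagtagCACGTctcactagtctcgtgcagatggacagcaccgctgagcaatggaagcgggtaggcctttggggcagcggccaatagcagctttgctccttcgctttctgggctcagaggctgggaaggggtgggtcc
Car9, chr4:43506776-43506965, plus strand: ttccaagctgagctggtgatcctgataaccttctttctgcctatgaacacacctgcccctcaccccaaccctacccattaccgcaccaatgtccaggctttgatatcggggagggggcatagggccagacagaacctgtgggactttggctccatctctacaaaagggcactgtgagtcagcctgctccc
Car12, chr9:66713436-66713685, plus strand: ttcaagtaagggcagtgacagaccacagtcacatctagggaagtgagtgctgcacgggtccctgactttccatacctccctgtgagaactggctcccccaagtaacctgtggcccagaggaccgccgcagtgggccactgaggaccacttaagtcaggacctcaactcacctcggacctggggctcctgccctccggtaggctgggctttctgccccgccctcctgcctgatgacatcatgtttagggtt
Egln3, chr12:54203875-54204124, minus strand: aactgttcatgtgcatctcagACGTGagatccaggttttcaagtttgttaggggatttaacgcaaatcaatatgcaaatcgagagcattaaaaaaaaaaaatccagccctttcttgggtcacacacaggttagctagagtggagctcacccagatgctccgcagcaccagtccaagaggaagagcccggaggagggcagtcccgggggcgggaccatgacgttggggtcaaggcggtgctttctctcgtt
Egln1, chr8:124949325-124949504, minus strand: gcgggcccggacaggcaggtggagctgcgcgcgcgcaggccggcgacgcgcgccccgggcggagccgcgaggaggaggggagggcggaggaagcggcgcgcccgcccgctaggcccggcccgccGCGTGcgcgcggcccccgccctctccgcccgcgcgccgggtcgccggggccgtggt

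The Ldha sequence held 5 matches to ACGTG, counted on both strands, and the Pgk1 sequence held 2. Egln3 held 1, Egln1 held 1 match to GCGTG, and neither Car9 nor Car12 held any in the bases shown. The stretches of Car9 and Egln1 end 60 and 70 bases before the RefSeq start because GENCODE places exon sequence there, and 1 further ACGTG of each gene lay in the unprinted bases of its window. A RefSeq window, 250 bases before to 50 after a start, was available for 33 of the 38 genes, 48 windows in all. One of the 2 motifs was present in 75.0% of these windows, against 62.0% of the 12160 windows of genes that could be tested and 43.8% of all 32851 windows. The motifs differed in this, since ACGTG was present in 52.1% of the windows of these genes and 25.4% of those of tested genes, while GCGTG was present in 50% and 50.7%. The share was alike in genes that were higher in 3D, 7 of 10 windows, and in genes that were lower, 20 of 28. Of the glycolytic enzymes lower in 3D that are not shown, Eno2, Tpi1 and Gpi1 held neither motif in their windows. Pfkp and Pfkl held only GCGTG, and the others held ACGTG in a window. A match describes the letters in a window and is neither a bound site nor a cause of a change.

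The first comparison asked how 3D spheroids differed from 2D monolayers when both had added palmitate. The glycolytic enzymes and the other HIF targets gave different pictures. None of the 16 tested glycolytic enzymes and regulators was higher in 3D and 13 were lower, whereas the 15 other HIF targets were divided, with 6 higher, 8 lower and 1 not called. Over all 34 genes 8 were higher and 22 were lower at an adjusted p under 0.05 in the quasi-likelihood test of edgeR, adjusted by Benjamini-Hochberg over 12575 genes. Among all genes tested, 34.5% were called higher and 33.9% lower, so that a change was common among all genes in this comparison. The median log2 fold change was -0.63 over the glycolytic genes, -0.25 over the other HIF targets and 0.01 over all genes tested. No glycolytic enzyme was signed higher even at an unadjusted p under 0.05, and DESeq2 likewise called 0 of them higher. The plot of fold changes shows both comparisons gene by gene.

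**Figure D1:**
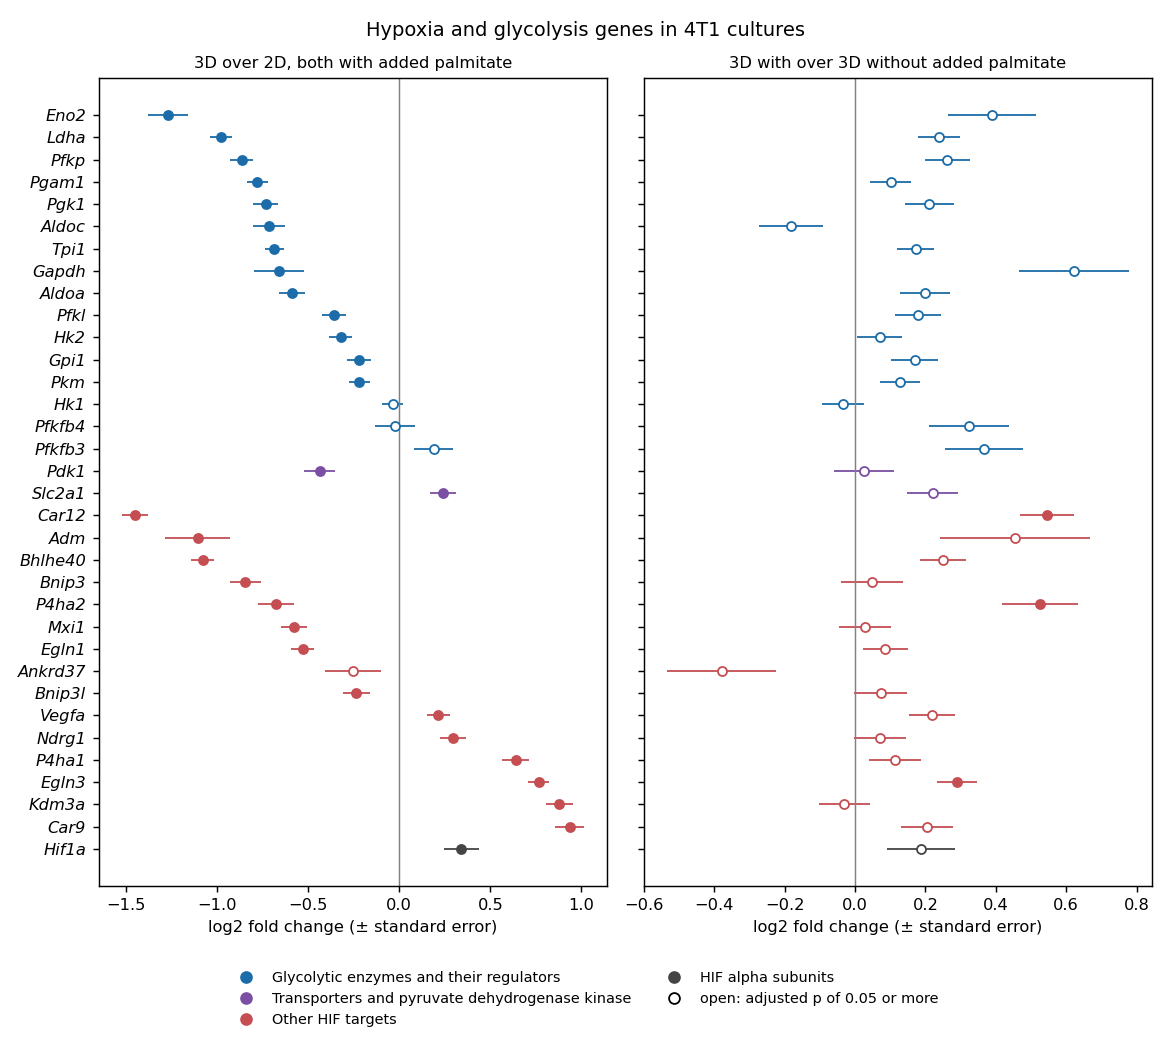
Log2 fold change and its standard error for the 34 genes with enough counts, ordered within each role by the 3D over 2D value (left) and in the same order for palmitate in 3D (right). The x axes differ in range. Filled points passed the test. On the left the glycolytic genes run from -1.27 for Eno2 to 0.19 for Pfkfb3 and the other HIF targets from -1.45 for Car12 to 0.93 for Car9. On the right the 3 filled points are Car12, P4ha2 and Egln3.

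The enzymes lower in 3D covered the pathway from hexokinase to lactate. Hexokinase Hk2, which traps glucose as its phosphate, had a log2 fold change of -0.32, and Gpi1, the isomerase that follows, had -0.22. The phosphofructokinases Pfkl and Pfkp, which catalyse the committed step, had -0.36 and -0.86. The aldolases Aldoa and Aldoc, which cut the sugar into trioses, had -0.59 and -0.72, and the triose isomerase Tpi1 had -0.69.

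The enzymes of the lower branch that were lower in 3D ran from -0.22 to -1.27 in log2. Gapdh, the first oxidative step, had a log2 fold change of -0.66, Pgk1, which makes the first ATP, had -0.73, and the mutase Pgam1 had -0.78. Pkm, which makes pyruvate and ATP, had -0.22. The 3 that did not pass the test were the hexokinase Hk1 (-0.04), and Pfkfb3 and Pfkfb4 (0.19 and -0.02), the bifunctional enzymes that set the level of the phosphofructokinase activator fructose 2,6-bisphosphate.

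Eno2, the neuronal type enolase (chr6:124760053-124769673 of GRCm38, minus strand), showed the largest difference among the glycolytic genes. Its levels were 17.1, 19.96 and 19.6 CPM in the 2D libraries and 8.39, 8.05 and 6.43 CPM in the 3D libraries with added palmitate. Every 2D library was above every 3D library. Expressed as log2 of 3D over 2D, the difference came to -1.27 (standard error, SE, 0.11, edgeR adjusted p = 1.20e-07).

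Ldha, which reduces pyruvate to lactate (chr7:46841475-46855627, plus strand), was one of the most abundant of these mRNAs and was the next lower. Its 2D libraries held 1549, 1521 and 1528 CPM, and its 3D libraries with added palmitate held 818, 794 and 723 CPM. The groups did not overlap, and the spread within each was small beside the gap between them. The fitted difference of 3D from 2D was -0.98 in log2 (SE 0.06, edgeR adjusted p = 3.64e-09), and the RefSeq window printed above begins inside the gene as GENCODE draws it.

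Pfkp, the platelet type phosphofructokinase (chr13:6579768-6648777, minus strand), had 139.6, 145 and 143 CPM in 2D and 76.5, 82.0 and 76.3 CPM in 3D with added palmitate. All 3D values were far below all 2D values, and 3D over 2D gave a log2 ratio of -0.86 (SE 0.06, edgeR adjusted p = 2.19e-08). The 3D libraries without added palmitate lay lower still for each of these 3 genes. Eno2 was at 6.28, 5.82 and 5.91 CPM there, Ldha at 641, 666 and 675 CPM, and Pfkp at 65.5, 61.6 and 68.7 CPM. For 14 of the 16 glycolytic genes every 3D library without added palmitate was below every 2D library.

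**Figure D2:**
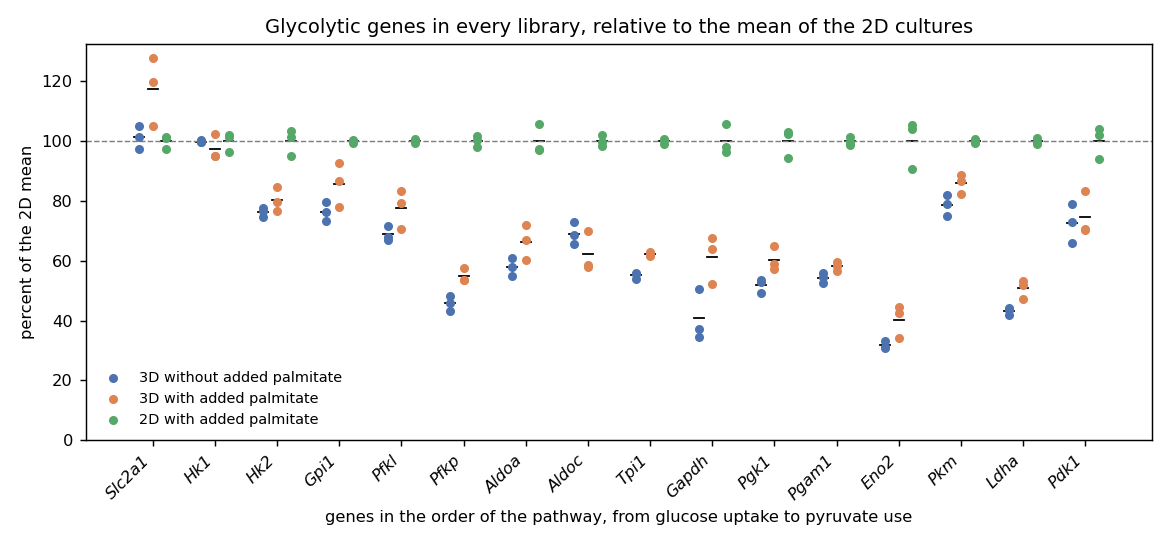
Level of each gene in each of the 9 libraries as percent of the mean of the 2D libraries (y axis), with genes in the order of the pathway (x axis); points are libraries, bars are condition means, and the dashed line is the 2D mean. The regulators Pfkfb3 and Pfkfb4 and the untested genes are left out. In 3D with added palmitate Ldha averaged 50.8% and Eno2 40.3% of the 2D mean, while Hk1 averaged 97.4% and Slc2a1 118%.

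As a group, the 17 glycolytic genes took 0.827% ± 0.0116 (SD, n = 3) of all counts in 2D, 0.585% ± 0.0309 (SD, n = 3) in 3D with added palmitate and 0.532% ± 0.00186 (SD, n = 3) in 3D without it. Most of this came from Pkm, Aldoa and Ldha, which together took 0.565%, 0.397% and 0.360% in the same order. The 15 other HIF targets took 0.165% ± 0.00300, 0.173% ± 0.00110 and 0.162% ± 0.0104 (SD, n = 3 each). The summed share of the glycolytic genes was thus lower in 3D, and that of the other HIF targets was within a narrow range in all 3 conditions. The second sum joins 6 genes called higher and 8 called lower in 3D than in 2D, so it does not describe single genes. Its most abundant gene was Ndrg1, at a mean of 544 CPM in 2D, 667 in 3D with added palmitate and 635 in 3D without it. No p is given for these sums.

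Per kb of transcript, the 2D levels spanned a wide range. Pkm was at 1052 ± 5.93, Aldoa at 1004 ± 49.4 and Ldha at 844 ± 8.19 CPM per kb (SD, n = 3 each), so Pkm and Aldoa did not differ beyond their spread. Tpi1 followed with 444 ± 4.00, then Pgk1 with 182 ± 8.72 and Gpi1 with 157 ± 0.741 CPM per kb (SD, n = 3 each). The regulators Pfkfb3 and Pfkfb4 were lowest among the tested glycolytic genes, at 2.30 ± 0.197 and 3.16 ± 0.287 CPM per kb (SD, n = 3 each).

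Gapdh stood out by a low level for an enzyme of the main pathway, at 7.44 ± 0.381 CPM per kb (SD, n = 3) in 2D, and Eno1 had no counts there. Both share much of their sequence with other genes. Of the 50-base stretches of the Gapdh transcript, as long as the reads, 82.5% occurred exactly in another annotated gene, and the figure was 72.2% for Eno1, 68.0% for Pgk1, 41.5% for Pgam1 and 34.4% for Pkm. For Eno1 the gene sharing most stretches was Eno1b, and that gene, looked up after these values were seen, had 193 to 1705 counts per library where Eno1 had 0 or 1. The genes sharing most stretches with Gapdh (Gm7336) and with Pgk1 (Pgk1-rs7), looked up as well, were not found by name among the counted genes. Whether the counting left out or reassigned such reads is not given in the sources used here, and the levels of these genes are therefore uncertain.

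At least 5% of stretches were shared in 11 of the 38 genes, of which 9 are glycolytic and 2 are Bnip3 and Bnip3l. Among the 8 tested glycolytic genes under that limit 5 were lower in 3D, namely Eno2, Pfkp, Aldoc, Pfkl and Hk2, and among the 8 at or above it all 8 were lower. Without the 11 genes, 8 of 24 were higher and 12 of 24 were lower in 3D. Apart from this, 20 of the 38 genes, Slc2a1, Car9, Adm, Bhlhe40 and Hif1a among them, overlap another annotated gene on the genome, and with the strand setting of the counting not given, reads of such neighbours cannot be told apart.

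**Figure D3:**
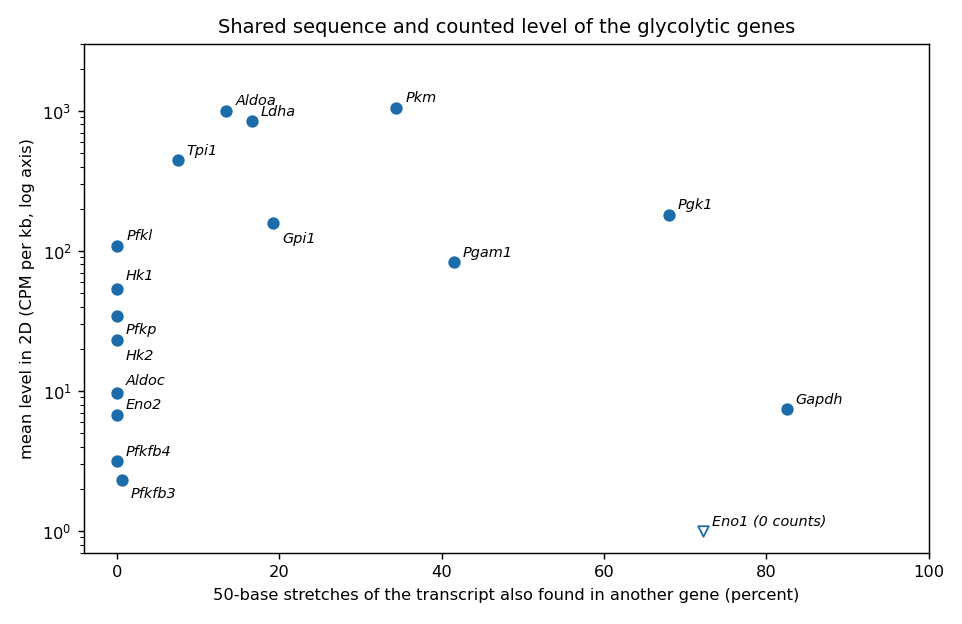
Percent of the 50-base stretches of each glycolytic transcript that also occur in another annotated gene (x axis) against the mean level of the gene in 2D cultures in CPM per kb (y axis, log scale). Gapdh and Eno1 lie at 82.5% and 72.2% shared stretches with low or no counts, while Pgk1 had 182 CPM per kb at 68.0%; the open triangle marks Eno1, which had 0 counts in 2D and is placed at 1.

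Of the transporters and the pyruvate dehydrogenase kinase, Slc2a1 was higher and Pdk1 lower in 3D with added palmitate than in 2D. Slc2a1, the GLUT1 glucose transporter (chr4:119108711-119137983, plus strand), was at 141, 146 and 146 CPM in 2D, 184, 173 and 152 CPM in 3D with added palmitate, and 152, 141 and 146 CPM in 3D without it. The 3D libraries with added palmitate were above all 2D libraries, with replicate 3 closest to them. Those without added palmitate overlapped the 2D libraries, so only the 3D condition with palmitate lay above 2D. In log2 units the 3D level with added palmitate differed from 2D by 0.24 (SE 0.07, edgeR adjusted p = 0.00821).

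Pdk1, the kinase that keeps pyruvate out of the mitochondrial pyruvate dehydrogenase (chr2:71873224-71903858, plus strand), was at 63.0, 64.3 and 58.1 CPM in 2D and at 43.7, 43.4 and 51.5 CPM in 3D with added palmitate. The 3D libraries without added palmitate, at 45.02, 40.7 and 48.7 CPM, lay in the same range as those with it. On the log2 scale, 3D differed from 2D by -0.44 (SE 0.08, edgeR adjusted p = 0.000327).

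Among the other HIF targets, the 6 higher in 3D were Car9, Kdm3a, Egln3, P4ha1, Ndrg1 and Vegfa. Car9, a membrane carbonic anhydrase of pH control that is widely used as a marker of hypoxia (chr4:43506966-43513729, plus strand), had 31.9, 33.7 and 33.2 CPM in 2D, 68.0, 63.8 and 55.3 CPM in 3D with added palmitate, and 55.1, 52.6 and 56.5 CPM in 3D without it. All 6 3D libraries were above all 2D libraries. Expressed as log2 of 3D over 2D, the difference came to 0.93 (SE 0.08, edgeR adjusted p = 7.56e-08).

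Kdm3a, a histone H3 lysine 9 demethylase (chr6:71588972-71632990, minus strand), had 77.2, 82.5 and 74.3 CPM in 2D, 135, 142 and 156 CPM in 3D with added palmitate, and 150.0, 136 and 154 CPM in 3D without it. Both 3D conditions lay in one range above the 2D libraries, and 3D over 2D gave a log2 ratio of 0.88 (SE 0.07, edgeR adjusted p = 9.57e-08). Smaller differences were seen for Ndrg1, a differentiation and stress gene, with a log2 fold change of 0.30, and for Vegfa, the vascular growth factor, with 0.21. Ndrg1 was nonetheless the most abundant of these targets per length, at 188 ± 3.66 CPM per kb (SD, n = 3) in 2D. Vegfa averaged 86.2 CPM in 2D, 100.1 CPM in 3D with added palmitate and 85.9 CPM in 3D without it, so only the 3D condition with palmitate lay above 2D.

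The 8 lower in 3D were Car12, Adm, Bhlhe40, Bnip3, P4ha2, Mxi1, Egln1 and Bnip3l. Car12, a second membrane carbonic anhydrase (chr9:66713686-66766845, plus strand), showed the largest difference of all 34 genes tested. Its levels were 104, 109 and 99.0 CPM in 2D, 38.1, 37.4 and 38.6 CPM in 3D with added palmitate, and 23.9, 27.8 and 26.5 CPM in 3D without it. The 3 conditions did not overlap, and 3D over 2D gave a log2 ratio of -1.45 (SE 0.07, edgeR adjusted p = 3.23e-10).

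Adm, the vasodilator peptide adrenomedullin (chr7:110627661-110629820, plus strand), was scarce, at 4.47, 5.09 and 4.50 CPM in 2D, 2.32, 2.35 and 1.53 CPM in 3D with added palmitate, and 1.42, 1.49 and 1.90 CPM in 3D without it. The raw counts behind these levels were 10 to 159 per library. The 2D libraries were all higher, and 3D over 2D gave a log2 ratio of -1.11 (SE 0.18, edgeR adjusted p = 6.34e-05).

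Bhlhe40, a transcriptional repressor of the circadian and hypoxia responses (chr6:108660629-108666925, plus strand), had 128, 131 and 121 CPM in 2D and 58.2, 59.5 and 62.9 CPM in 3D with added palmitate, with 51.9, 50.9 and 48.4 CPM in 3D without it. The 3 conditions did not overlap. The fitted difference of 3D from 2D was -1.08 in log2 (SE 0.06, edgeR adjusted p = 2.22e-09). Among the rest, the mitophagy receptors Bnip3 and Bnip3l had log2 fold changes of -0.85 and -0.24, and Mxi1, an antagonist of Myc, had -0.58. Ankrd37, a small ankyrin repeat gene, had -0.25 and did not pass the test.

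Closely related genes did not always move together. Of 11 paralog pairs among the 38 genes, 8 had both members tested. In 3 of these 8 pairs both genes were lower in 3D (Pfkl and Pfkp, Aldoa and Aldoc, Bnip3 and Bnip3l), and in 3 others the members were called in opposite directions. These 3 were Car9 and Car12, Egln3 and Egln1, and P4ha1 and P4ha2, all from the other HIF targets, and none of the 6 genes shared a 50-base stretch with another gene. Of the remaining pairs, Hk2 was lower and Hk1 did not pass, and neither Pfkfb3 nor Pfkfb4 passed.

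The prolyl hydroxylases that mark HIF alpha subunits for destruction formed one such pair. Egln3, also called PHD3 (chr12:54178981-54203860, minus strand), had 104, 107 and 106 CPM in 2D, 183, 173 and 181 CPM in 3D with added palmitate, and 143, 145 and 151 CPM in 3D without it. Egln1, also called PHD2 (chr8:124908587-124949324, minus strand), had 169, 163 and 166 CPM in 2D, 123, 111 and 110.1 CPM in 3D with added palmitate, and 106, 106 and 113 CPM in 3D without it. Egln3 was thus lowest in 2D and Egln1 highest there, with no overlap between 2D and either 3D condition. In log2 units, 3D over 2D was 0.77 for Egln3 (SE 0.06, edgeR adjusted p = 2.97e-08) and -0.53 for Egln1 (SE 0.06, edgeR adjusted p = 3.68e-06).

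The catalytic subunits of collagen prolyl 4-hydroxylase formed another. P4ha1 (chr10:59323296-59373304, plus strand) had 109, 113 and 103 CPM in 2D, 164, 168 and 174 CPM in 3D with added palmitate, and 159, 138 and 169 CPM in 3D without it. P4ha2 (chr11:54100095-54131665, plus strand) had 22.1, 26.3 and 26.4 CPM in 2D, 15.8, 15.8 and 15.5 CPM in 3D with added palmitate, and 12.2, 10.6 and 9.87 CPM in 3D without it. P4ha1 was higher in every 3D library than in any 2D library, and P4ha2 was lower in every one. In log2 units, 3D over 2D was 0.64 for P4ha1 (SE 0.07, edgeR adjusted p = 2.95e-06) and -0.68 for P4ha2 (SE 0.10, edgeR adjusted p = 2.97e-05).

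**Figure D4:**
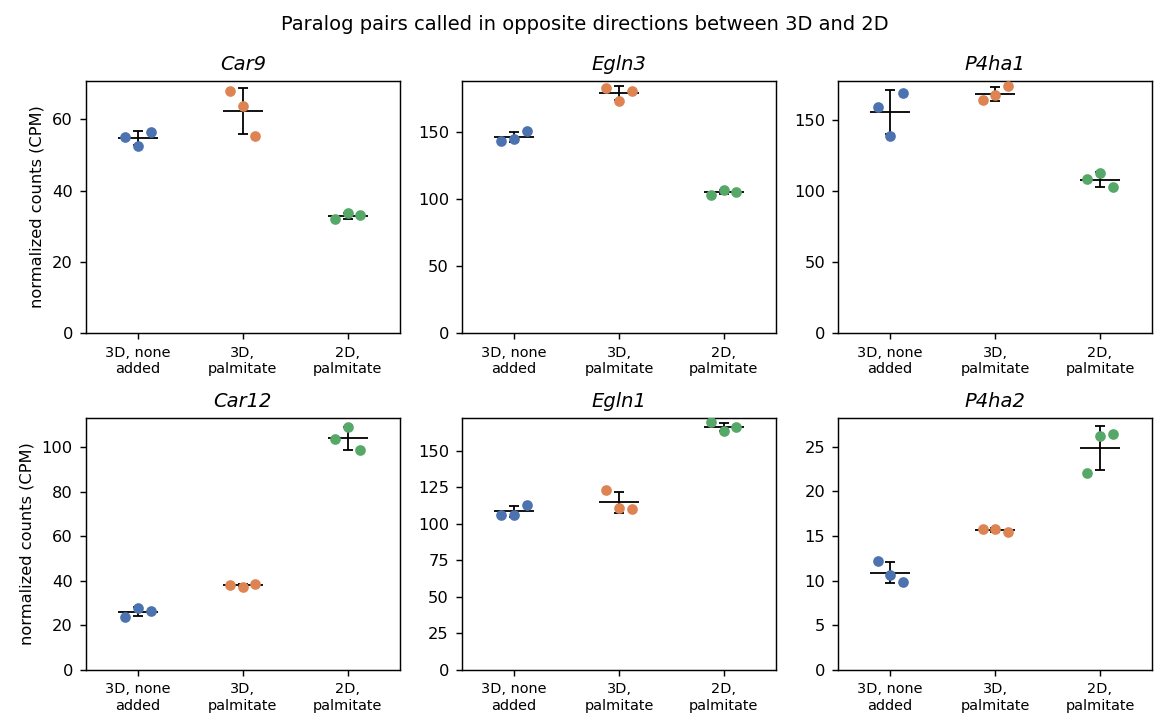
Normalized counts (CPM, y axis from 0) of the 3 paralog pairs in 3D without added palmitate, 3D with added palmitate and 2D with added palmitate; points are libraries, the wide bar is the mean and the whisker the SD of 3 libraries. The upper genes Car9, Egln3 and P4ha1 are lowest in 2D and the lower genes Car12, Egln1 and P4ha2 are highest there, and Car12, Egln3 and P4ha2 also separate the 2 3D conditions.

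Hif1a, which encodes the HIF-1 alpha subunit (chr12:73901375-73947530, plus strand), had 316, 318 and 274 CPM in 2D, 337, 365 and 449 CPM in 3D with added palmitate, and 309, 348 and 351 CPM in 3D without it. The 3D libraries with added palmitate lay above the 2D libraries, by a small margin for replicate 1, and they overlapped the 3D libraries without it. In log2 units the 3D level differed from 2D by 0.34 (SE 0.10, edgeR adjusted p = 0.00600). With Epas1 at no more than 6 counts in any library, Hif1a was the one HIF alpha subunit of the list with enough counts for the test. Between 3D and 2D the normalized values of the 2 groups did not overlap for 8 genes that lay higher and 21 that lay lower of the 34, against non-overlap for 69.4% of all genes tested.

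The second comparison asked what palmitate changed within 3D culture. It shares the 3D libraries with added palmitate with the first comparison, so the 2 sets of values are not independent. Few of the genes passed the test: 3 were higher with palmitate and 0 were lower of the 34, against 1.38% of all genes called higher and 0.811% called lower by edgeR's quasi-likelihood test. Of all genes called, 62.9% were higher with palmitate, and 46.7% when libraries were scaled by size only, which left the 3 and 0 of these genes as they were. The 3 were Car12, Egln3 and P4ha2, all of them other HIF targets. At an unadjusted p under 0.05, 19 genes were signed higher and 1 lower, where 2170 of all 12575 genes were under it in either direction. DESeq2 called 8 of these genes higher and 0 lower. Over all genes it called 395 of 11460 in either direction, 59.5% of them higher.

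The 3 genes had both 3D conditions apart in every library, with the values given above. Car12 rose by 0.55 on the log2 scale (SE 0.08, edgeR adjusted p = 0.00185), which brought it nearer to the 2D level that it nonetheless did not reach. P4ha2 rose by 0.53 on the log2 scale (SE 0.11, edgeR adjusted p = 0.0241), also in the direction of 2D. Egln3 rose by 0.29 on the log2 scale (SE 0.06, edgeR adjusted p = 0.0190), in the direction away from 2D. Car12 passed in all 18 other fits made, whereas P4ha2 passed in 11 and Egln3 in 10 of them. The call of P4ha2 was lost without replicate 2 or 3 of 3D without palmitate (adjusted p = 0.0974 and 0.126 in edgeR's test) and without replicate 1 or 2 of 3D with palmitate (adjusted p = 0.0593 and 0.109 in edgeR's test). The call of Egln3 was lost without any 1 of the replicates 1, 2 and 3 of 3D without palmitate, replicate 2 of 3D with palmitate, and replicate 1 of 2D (adjusted p from 0.0522 to 0.0959 in edgeR's test).

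None of the 16 tested glycolytic genes passed the test with palmitate in either direction. Their log2 fold changes ran from -0.18 for Aldoc to 0.62 for Gapdh, with a median of 0.19 against 0.01 over all genes tested, and 14 of the 16 were signed higher. At an unadjusted p under 0.05 there were 12 of the 16, against 2170 of all 12575 genes. DESeq2 called 4 of the 16 higher, against 395 of 11460 genes called in either direction. The adjusted p in edgeR's test was closest to the threshold for Pfkp (log2 fold change 0.26, adjusted p = 0.05003), Ldha (0.24, adjusted p = 0.0558) and Gapdh (0.62, adjusted p = 0.0559). Ldha, at 641 to 675 CPM without palmitate and 723 to 818 CPM with it, and Pfkp did not overlap between the groups.

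Over all 34 genes, 30 were signed higher with palmitate, against 6564 of the 12575 genes tested. The groups did not overlap for 15 that lay higher and 1 that lay lower, against non-overlap for 18.6% of all genes. The lone gene lying lower was Ankrd37, with a log2 fold change of -0.38 that did not pass (edgeR adjusted p = 0.226). Hif1a had a log2 fold change of 0.19 (SE 0.10, edgeR adjusted p = 0.339), Slc2a1 had 0.22, Car9 0.20 and Vegfa 0.22, none of which passed.

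One library had much weight in this comparison. Replicate 3 of 3D with palmitate, the library with the fewest counts, was the one nearest to the mean without palmitate for 17 of the 34 genes, among them 11 of the 16 glycolytic ones. Some replicate is nearest for every gene, and the share over all genes was not counted, so this count alone does not set the library apart. Without it 16 genes were called higher with palmitate, 9 of them glycolytic, in edgeR's test, and 1901 genes were called in the whole table in place of 275. The count was 1 without replicate 2 or 3 of 3D without palmitate or without replicate 2 of 3D with palmitate. Pairs of 3D libraries with added palmitate had a chi-square value per gene of 16.4 to 19.7, against 3.89 to 9.30 in the other conditions. It is a mean over genes from raw counts, so a single abundant gene can carry much of it. Rn45s was among these genes, and took 3.14%, 5.38% and 1.81% of counts in replicates 1, 2 and 3 of that condition. It took 1.77% to 2.77% in 3D without palmitate and 2.46% to 3.49% in 2D. The values alone therefore do not show a wider spread across genes. The part of the depth of replicate 3 of 3D with palmitate in the results of this comparison was not tested.

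Other genes of the same pathways were counted from lists that were written, like the 38 genes, with earlier results of these data known. Of 24 tested other glycolysis and pyruvate genes 6 were higher and 14 were lower in 3D than in 2D, and of 24 tested other HIF pathway genes 8 were higher and 12 were lower. The 2 lower with the smallest p were Pck2, mitochondrial phosphoenolpyruvate carboxykinase, with a log2 fold change of -1.75, and Stc2, a secreted glycoprotein, with -1.64. The 2 higher were Pdk2, another pyruvate dehydrogenase kinase, with 1.62, and Slc16a1, the MCT1 lactate transporter, with 0.55. Slc16a1 averaged 420 CPM in 3D with added palmitate, where Slc16a3 had no more than 7 counts in a library.

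With palmitate in 3D, edgeR's test called 1.38% of all genes higher and 0.811% lower. Of the 24 other glycolysis genes 3 were higher, of the 24 other HIF pathway genes 4 were higher, and 0 of either list were lower. At an unadjusted p under 0.05, 2 and 1 of them lay lower, and DESeq2 called 3 and 5 higher and 0 lower. The 2 with the smallest p were Angptl4, an inhibitor of lipoprotein lipase that is a target of fatty acid receptors as well as of HIF, and Fbp2, a fructose bisphosphatase of gluconeogenesis. Angptl4 rose by 2.64 on the log2 scale from a mean of 0.489 CPM, and was at 5.95 CPM in 2D. Fbp2 rose by 1.62 on the log2 scale from a mean of 0.670 CPM, and was at 0.323 CPM in 2D.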

How the data were processed

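The authors cleaned 50-base single-end reads with fastq-mcf, checked them with FastQC 0.11.9, aligned them to GRCm38 with HISAT2 2.1.0 and counted them per gene with HTSeq-count, and the values they deposited are raw counts. The annotation release, strand setting and handling of reads with several matches are not given in the sources used here. In R 4.3.3, genes were filtered with filterByExpr of edgeR 4.0.16, scaled by TMM, and fitted over all 9 libraries by the quasi-likelihood method with condition as the only term. Genes with a Benjamini-Hochberg adjusted p under 0.05 over all genes tested were called. CPM is the count scaled to the TMM-corrected library size. The longest protein-coding transcript of GENCODE M21 gave length and shared 50-base stretches, of genes matched by symbol (23376) or a single synonym (678).

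The 38 genes, the lists and the tests were chosen with earlier results of these data known. Values in every library were given for the 3 called genes of largest change in each direction and role, every gene called with palmitate, the HIF alpha subunits and paralogs called in opposite directions. The 2 genes of the other lists with the smallest p in each direction were named. Alternatives were other scalings, filters and size threshold, DESeq2 1.42.0, the 2 groups alone, a replicate block, Rn45s share as a covariate, removal of a GC and length trend, each library left out, and, chosen after seeing the data, leaving out genes with at least 5% shared stretches. The procedure was tested on simulated data. Same-numbered libraries had deviations correlated by -0.24 to 0.15 over 9 pairs, with 1 over 0.1, so the numbers were not taken to pair them. Library totals of 6595514 to 31177756 limit the precision of genes with few counts.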

Additional observations from a re-analysis of the deposited data

How the results depend on the processing

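Between 3D and 2D, 8 genes higher and 22 lower became 4 and 16 when calls also needed an absolute log2 change of at least 0.5, and the 22 became 12 without the genes that share stretches with others. The share of all genes that met this size threshold is not given here. The glycolytic genes kept 0 higher and 13 lower calls in every refit, although the call of Pkm was lost with the GC and length trend removed (log2 fold change -0.11, adjusted p = 0.0689 in edgeR's test), where Hk1 passed. Bnip3l was lost without replicate 2 of 3D with palmitate (adjusted p = 0.0617 in edgeR's test). The 3 genes higher with palmitate in 3D became 1 with the replicate block, 1 with the Rn45s covariate, 1 with only the 2 groups compared, 8 with DESeq2 and 13 after the GC and length trend was removed, and from 1 to 16 with 1 library left out. The calls over the whole table moved as well, from 275 to 111, 44, 77, 395 and 1051 in the same order. With 1 library left out they ran from 71 to 1901. The count of lower genes with palmitate was 0 throughout. Scaling by library size only moved the share of higher among all genes called with palmitate from 62.9% to 46.7%, and no filter moved it to 52.7%, with 3 and 4 of these genes called higher. Over 19 named fold changes and 342 alternative values, 326 kept direction and side of the threshold, 15 lost the call (P4ha2 and Egln3 with palmitate), 1 gained it (Hif1a with palmitate, 0.24 with the trend removed) and 0 reversed. The replicate block left the 3D against 2D counts of these genes unchanged. Causes of these shifts were not tested. Genes with few counts, such as Adm, Gapdh and Ankrd37, are the least precise.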
